A study of Arabidopsis thaliana with 6 samples.

Results

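A set of 61 probe sets, of 22746 non-control probe sets on the array, was moderately lower in floral buds of both atyak1-1 and atyak1-2 than in wild-type buds of Arabidopsis thaliana. They were chosen by the signals of this same comparison: both wild-type arrays had to reach at least 200, all 4 mutant arrays had to lie at or under 0.5 of the lower wild-type array, and at least 1 mutant array of replicate 2 had to stay above 0.25 of it. The rule picked 63 probe sets, and ACT12 and ATG8H were left out by symbol. The lower level of the 61 is therefore how they were chosen and is given below as a description, with no test. The rule also fixed that mutant and wild-type arrays overlap for none of them, an order that 11.1% of all probe sets tested showed.

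Transcripts were measured on 6 Affymetrix ATH1 arrays, 1 per sample, with 2 samples called biological replicates for each of atyak1-1, atyak1-2 and the wild type. All plants were Col-0, 42 days old and grown in equal periods of light and dark, and RNA came from mixed buds up to stage 13 of the primary inflorescence. The mutants carry different alleles of AtYAK1, and the labels do not say what change either allele holds. The title of the study sets its question, the part of this kinase in making pollen, the male gametophyte. Array medians lay between 213 and 223, and AtYAK1's own transcript was not analysed here.

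AtYAK1 belongs to the DYRK kinases, which activate themselves by phosphorylating a tyrosine and then act on serines and threonines, and its relatives in yeast restrain growth when nutrients are short. A floral bud of this age range holds sepals, petals, stamens with pollen of several ages, carpels and nectaries. Its growing cells build walls of cellulose, pectin and hemicelluloses such as xyloglucan and xylan, many of whose sugars carry acetyl groups. In such mixed tissue, fewer cells of a type and less RNA per cell cannot be told apart.

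One gene was given by the platform's probe table for 28 of the 61 probe sets, which is 45.9%, against 59.4% of all non-control probe sets. Of these 28 genes, 7 had a symbol and 21 only a locus code. A further 32 probe sets had no listed gene and 1 had several, and they are called by probe set ID. On the scale of mean log2 signal, both alleles minus wild type, the 61 lay between -2.86 and -1.07 with a median of -1.71, so the median member kept 30.6% of its wild-type level. All 15164 probe sets tested had a median of 0.09. Of the 61, 51 were less than 4-fold lower and 10 were more than 4-fold lower.

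The genes of cell wall synthesis and assembly kept between 25.3% and 34.5% of the wild-type level. TBL26, of the trichome birefringence-like family whose studied members add acetyl groups to wall polysaccharides, had signals of 852 and 1047 on the atyak1-1 arrays and 651 and 1223 on the atyak1-2 arrays, against 2545 and 3057 on the wild-type arrays. In both mutants its replicate 2 array was the higher one, and its log2 difference was -1.60 ± 0.25 (SE of the fit to 6 arrays, as for the differences below). CSLC12, of the family of glucan synthases that make the xyloglucan backbone, had 210.1 and 103 in atyak1-1 and 172 and 132 in atyak1-2, against 429 and 433 in the wild type. Its replicate 1 arrays in the mutants, unlike those of TBL26, were the higher ones. IRX15-L, which takes part in xylan synthesis, had 103 and 42.7 in atyak1-1 and 88.8 and 72.8 in atyak1-2, against 230.0 and 303 in the wild type. AT5G11420, a secreted wall protein with a DUF642 domain, had 532 and 572 in atyak1-1 and 584 and 589 in atyak1-2, against 1801 and 2808 in the wild type. Its mutant arrays spanned only 1.11-fold from lowest to highest, while its wild-type arrays were farther apart. For this gene the log2 difference was -2.30 without wild-type replicate 1 and -1.66 without wild-type replicate 2, against -1.98 ± 0.19 with all arrays.

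Among the defence-type and lectin genes were the brightest named member and the one with the lowest remaining share. THI2.1, a thionin, that is a small antimicrobial peptide induced by jasmonate, had 4047 and 665 in atyak1-1 and 3636 and 2439 in atyak1-2, against 9626 and 9131 in the wild type. The replicate 2 array of atyak1-1 stood far below the other 3 mutant arrays, and the 6.08-fold span of the mutant arrays was the widest of the 61. Its log2 difference of -2.08 ± 0.63 was -1.43 without that array and -2.74 without the other atyak1-1 array. JAL23, a jacalin-type lectin, had 135 and 403 in atyak1-1 and 306 and 334 in atyak1-2, against 2096 and 1385 in the wild type, and kept 16.0% of the wild-type level (-2.64 ± 0.41). The low atyak1-1 array of this gene was replicate 1, not replicate 2. AT5G66590, of the secreted CAP superfamily that includes the PR-1 proteins of defence, had 1066 and 649 in atyak1-1 and 1195 and 818 in atyak1-2, against 2597 and 2772 in the wild type. In both mutants the replicate 2 array was lower for AT5G66590.

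Genes tied to calcium and lipids kept between 29.0% and 43.1%. The share of 43.1% was that of AT1G70790, a protein with a C2 domain of the kind that binds membranes in response to calcium. This gene had 623 and 570.4 in atyak1-1 and 612 and 596 in atyak1-2, against 1391 and 1391 in the wild type. Both its mutant and its wild-type arrays were nearly level, and the log2 difference was -1.21 ± 0.12. The EF-hand calcium sensors AT1G73630 and AT1G24620 had mutant signals from 202 to 257 and from 80.2 to 112. Their wild-type signals were 598 and 783 for AT1G73630 and 284 and 413 for AT1G24620. AT5G54130, which joins calcium-binding and phosphatase-like domains, kept 39.7%. AT5G24240, of the phosphatidylinositol 4-kinase family, kept 34.2%, and AT4G11030, a long-chain acyl-CoA synthetase that activates fatty acids, kept 32.9%. In all 6 genes the mutant arrays lay closer together than those of TBL26, CSLC12 and IRX15-L.

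The enzymes and the transporter kept between 21.5% and 38.4%. 4CL8, related to the ligases that activate 4-coumarate in phenylpropanoid synthesis, had 187 and 219.9 in atyak1-1 and 215 and 261 in atyak1-2, against 725 and 883 in the wild type. AT5G15140, of the aldose epimerase type that interconverts forms of sugars, had 223 and 213 in atyak1-1 and 177 and 217 in atyak1-2, against 793 and 774 in the wild type. The mutant arrays spanned 1.39-fold for 4CL8 and 1.27-fold for AT5G15140, and the log2 differences were -1.87 ± 0.17 and -1.92 ± 0.15. AT2G40460, of the nitrate and peptide transporter family, had 406 and 225 in atyak1-1 and 512 and 333 in atyak1-2, against 1073 and 1266 in the wild type, with the replicate 2 array lower in both mutants. The short-chain dehydrogenase AT3G01980 had 529 and 342 in atyak1-1 and 438 and 383 in atyak1-2, against 1337 and 1218 in the wild type. Another of this type, AT1G54870, kept 21.5% and was dim, with mutant signals from 38.5 to 87.3 and wild-type signals of 218 and 386. AT1G02470, of the polyketide cyclase and lipid transport superfamily, kept 38.4%.

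A further 6 genes were grouped under cytoskeleton, trafficking, chromatin and regulation. SP1L4, of the SPIRAL1 family of microtubule-associated proteins that guide directional cell growth, had 104 and 119 in atyak1-1 and 131 and 133 in atyak1-2, against 832 and 483 in the wild type. The mutant arrays of SP1L4 were close together and its wild-type arrays were not, and its log2 difference of -2.39 ± 0.24 was -1.99 without wild-type replicate 1 and -2.78 without wild-type replicate 2. AT5G02570, a histone H2B, had 168 and 133 in atyak1-1 and 108 and 122 in atyak1-2, against 391 and 509 in the wild type. AT5G54780, a GTPase-activating protein of the Rab type that acts in vesicle traffic, kept 35.4%, and AT2G28400, with a DUF584 domain, kept 35.3%. AT3G18360, a VQ-motif protein of the kind that binds WRKY factors, kept 29.5%. The kinase gene AT1G17540 kept 38.4%, from wild-type signals of 252 and 206 that lie just above the limit of 200. No role is stated here for AT3G23170, AT3G20300 and AT1G21010, which kept 34.7%, 19.7% and 30.6%. The lowest array of AT3G20300 was replicate 2 of atyak1-1, at 42.7, against 88.2 for replicate 1 of that allele, 106 and 101 in atyak1-2 and 532 and 309 in the wild type.

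**Figure D1:**
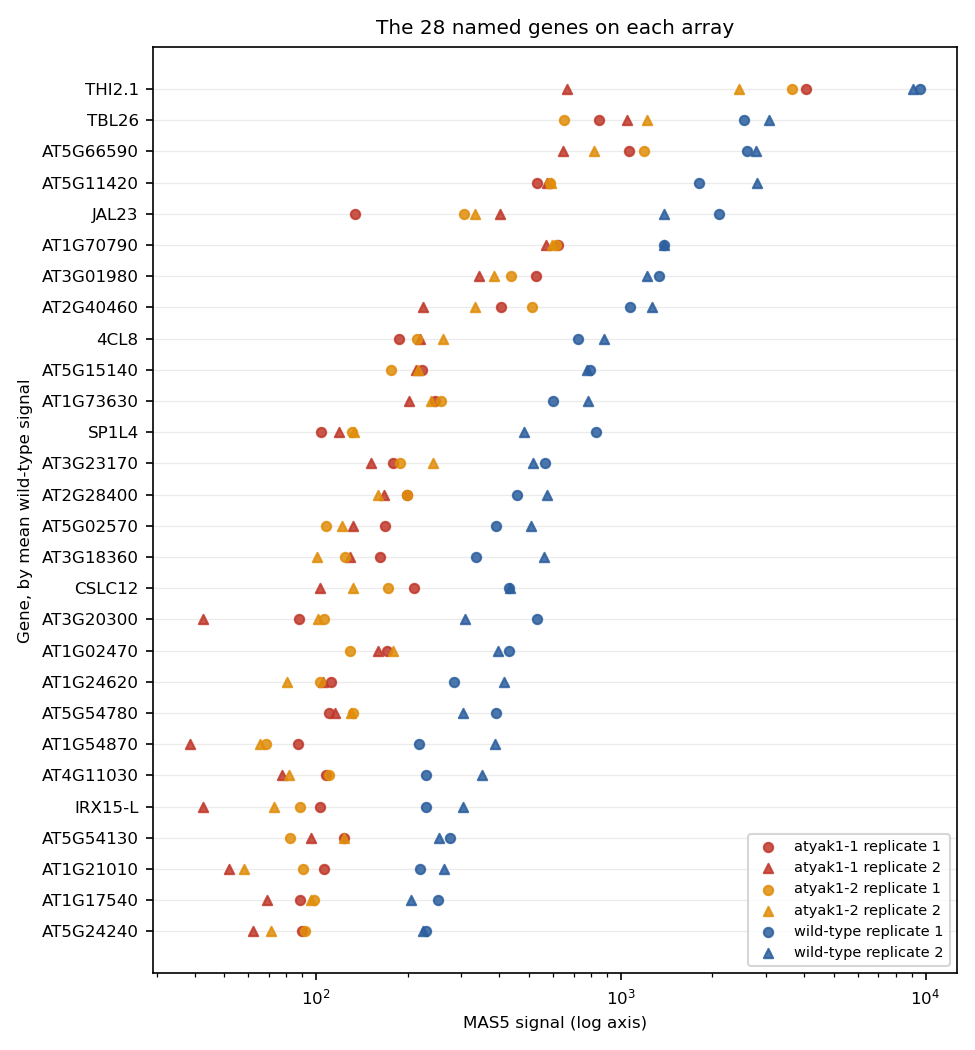
MAS5 signal (log axis) of the 28 named genes on each of the 6 arrays, ordered by mean wild-type signal, with colour for the genotype and shape for the replicate. Every mutant array lies left of both wild-type arrays, as the rule required, and THI2.1, JAL23 and AT3G20300 have 1 atyak1-1 array set apart from the other mutant arrays.

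The 33 probe sets with no single named gene had a median log2 difference of -1.72, close to the -1.66 of the 28 named genes. They held 3 of the 4 brightest members, named here after their values were seen. The brightest of all, 256966_at, had 4345 and 2071 in atyak1-1 and 3096 and 2587 in atyak1-2, against 9134 and 11090.2 in the wild type. Close behind, 259383_at had 1383 and 3107 in atyak1-1 and 3104 and 2312 in atyak1-2, against 8343 and 7670 in the wild type, so that its low mutant array was replicate 1 of atyak1-1. The last of these 3, 259660_at, had 3125 and 3128 in atyak1-1 and 3130 and 3218 in atyak1-2, against 6788 and 6438 in the wild type. The 4 mutant arrays of 259660_at spanned 1.03-fold, the narrowest span of the 61, and its log2 difference of -1.07 was the smallest. The largest difference, -2.86, was that of 253040_at, with 78.9 and 87.8 in atyak1-1 and 98.4 and 145 in atyak1-2, against 931 and 563 in the wild type. Of the 3 probe sets whose IDs end in _s_at, which mark probes shared by several transcripts, 1 was annotated to both AT4G35160 and AT4G35150, so its signal cannot be given to either gene.

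Across the 61, wild-type levels ran from a mean signal of 227 to one of 10112, with 19 above 1000 and 25 under 500. The median signal of the members was 180.4 and 160 on the replicate 1 and 2 arrays of atyak1-1 and 177 and 187 on those of atyak1-2, against 566 and 630.4 on those of the wild type. The 4 mutant medians were thus alike, with replicate 2 of atyak1-1 the lowest. Within 1 member the mutant arrays spanned a median of 1.63-fold: 25 spanned under 1.5-fold and 3 spanned over 3-fold, which were THI2.1, 259878_at and 249817_at. In 259878_at and 249817_at, unlike THI2.1, the replicate 2 arrays were the higher ones in both alleles. For 259878_at they were 344 in atyak1-1 and 229.6 in atyak1-2, against 89.7 and 87.3 for replicate 1, with 769 and 800 in the wild type. Replicate 2 was below replicate 1 in 41 of 61 members in atyak1-1 and in 34 of 61 in atyak1-2, where 48.2% and 50.04% of all probe sets tested were, and it was above replicate 1 in 36 of 61 (59.0%) in the wild type, against 49.0% of all tested. Within replicate 1 the median log2 difference of the members was -1.44, and within replicate 2 it was -1.88. The rule reads the replicate 2 mutant arrays, so this order is not a test.

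Probe sets that met the first 2 conditions of the rule and had both replicate 2 mutant arrays at or under 0.25 of the lower wild-type array numbered 227, with the same symbols left out. Their wild-type medians, 713 and 645, were near those of the 61. In these the mutant arrays spanned a median of 4.22-fold, against 1.63-fold in the 61, and replicate 2 was below replicate 1 in 211 of 227 in atyak1-1 and in 199 of 227 in atyak1-2. The geometric mean of the mutant arrays lay under 73.6, the signal that the filter asked of a probe set's mean over all arrays, for 5 of the 61 and for 151 of the 227. As the rule separates these sets by their replicate 2 signals, the values describe the split and do not test it.

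**Figure D2:**
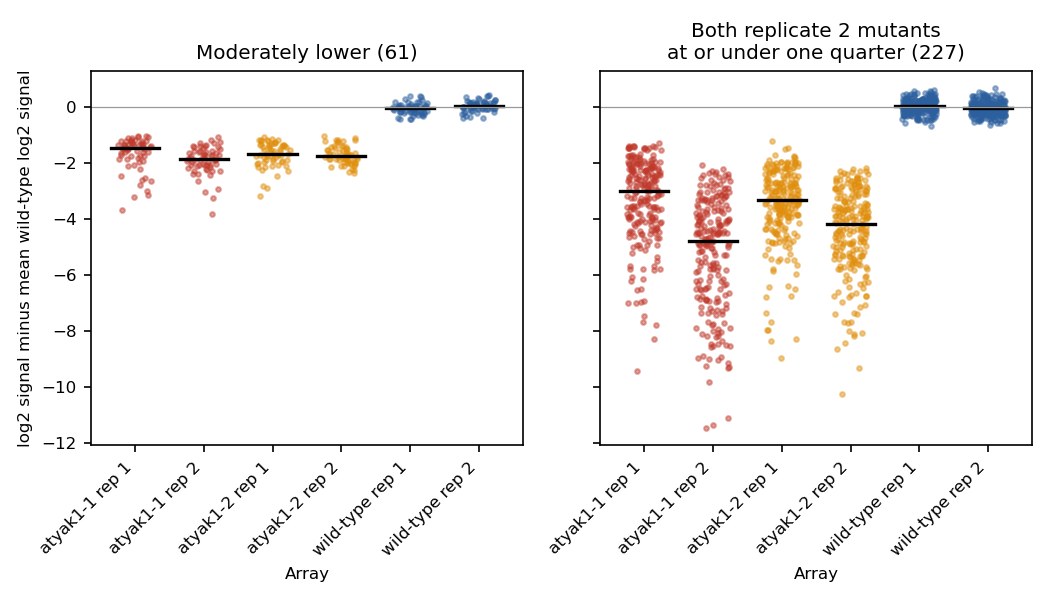
Log2 signal on each array minus the mean log2 signal of the wild-type arrays, for the 61 moderately lower probe sets (left) and the 227 with both replicate 2 mutant arrays at or under 0.25 of the lower wild-type array (right). Points are probe sets and black lines are medians; on the left the 4 mutant arrays sit at like levels, and on the right the replicate 2 mutant arrays lie below the replicate 1 arrays.

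In limma's moderated test of the mean of both alleles against the wild type, 51 of the 61 passed an adjusted p of 0.05, all lower, where 1.64% of the probe sets tested were called lower. As the rule reads this comparison, nothing is drawn from that count. It was 61 with the replicate number as a block in the fit, where 4.79% were called lower. Leaving out an atyak1-2 array gave 20 (replicate 1) or 15 (replicate 2). Leaving out a wild-type array gave 1 (replicate 1) or 0 (replicate 2), and 60 had an unadjusted limma p under 0.05 in either case.

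The rule did not set the alleles against each other, but it read all 4 mutant arrays and so bounds how far the alleles can part. The fit of atyak1-2 minus atyak1-1 below is to be read within that bound. Of the 61 members 0 passed in limma with Benjamini-Hochberg adjustment over all 15164 probe sets, where 0% were called, and 2 had an unadjusted p under 0.05, where 0.996% of all did. With the replicate block 0 passed, where 0.0132% were called, and 3 had an unadjusted p under 0.05, where 2.66% of all did. Differences ran from -0.47 to 0.86 with a median of 0.07, and 37 of 61 (60.7%) were positive, that is higher in atyak1-2, against 50.2% of all probe sets tested and 59.9% of the 227. The median size of the difference was 0.18 in the members, against 0.10 in all tested. The members were also dimmer on the mutant arrays, with medians of 160 to 187, against 445 to 453 in all tested. Whether their lower signal accounts for the larger size was not tested. A size of 1 was passed by 0 of the 61, by 59 of the 15164 tested and by 50 of the 227. The values of the 227 came from the fit without the filter, as not all of them were among the 15164. For 151 of the 227 the geometric mean of the mutant arrays lay under 73.6, so their allele differences rest on dim signals. A missed threshold does not show that the alleles act alike: the 95% interval of the difference lay within a 2-fold change either way for 42 members and reached past it for 19.

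Without the block, the members with an unadjusted p under 0.05 were 266326_at and 252870_at, singled out after their values were seen. With it AT3G20300 joined them (limma unadjusted p = 0.026, against 0.11 without the block). For 266326_at the signals were 194 and 191 in atyak1-2, against 108 and 125 in atyak1-1, with 566 and 625 in the wild type, a log2 difference between the alleles of 0.73 ± 0.17 (SE, 2 arrays each; limma unadjusted p = 0.0044, adjusted p = 0.9998). For 252870_at they were 248 and 197 in atyak1-2, against 168 and 135 in atyak1-1 (0.56 ± 0.22, limma unadjusted p = 0.037, adjusted p = 0.9998). Neither pair of alleles overlaps.

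Of the named genes, THI2.1, AT3G20300, JAL23 and AT2G40460 had the highest differences, at 0.86, 0.76, 0.46 and 0.45, and AT5G02570, AT3G18360, AT1G24620 and AT5G15140 the lowest, at -0.38, -0.37, -0.26 and -0.16. For THI2.1 the sign rests on 1 array: without atyak1-1 replicate 2 the difference was -0.44. For JAL23 it was -0.33 without atyak1-1 replicate 1. The intervals were wide for these, from -0.87 to 2.59 for THI2.1 and from -0.68 to 1.59 for JAL23, and narrow for AT1G70790, from -0.30 to 0.33.

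Both atyak1-2 arrays lay above both atyak1-1 arrays in 12 members, or 19.7%, where 10.5% of all probe sets tested did so. Named genes among the 12 were AT5G11420, SP1L4, AT3G23170, AT3G20300, AT5G54780 and AT1G17540. The opposite order held in 6 members, or 9.84%, against 10.3% of all, and those with names were AT5G02570, AT3G18360 and AT1G24620. The test called none of these differences.

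**Figure D3:**
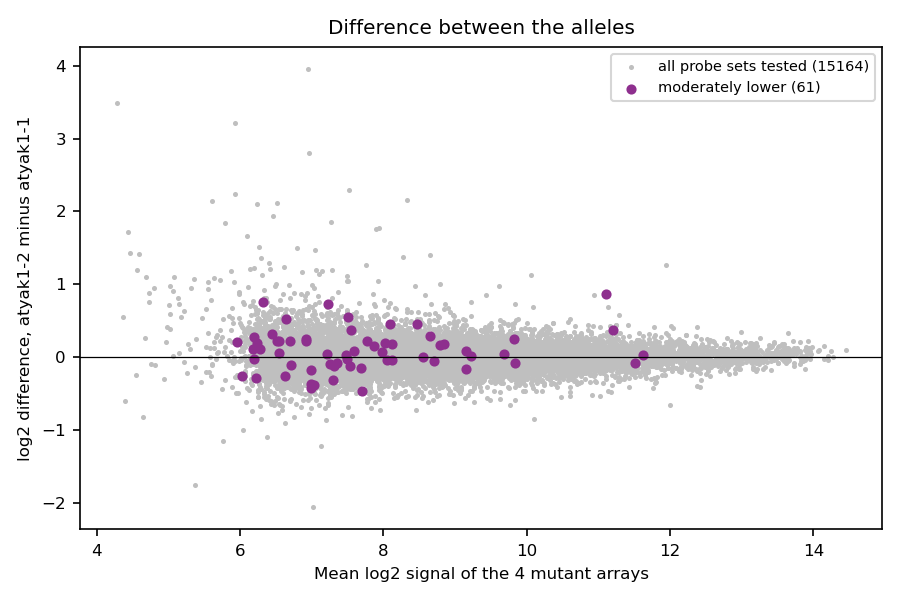
Log2 difference atyak1-2 minus atyak1-1 against the mean log2 signal of the 4 mutant arrays, for all 15164 probe sets tested (grey) and the 61 moderately lower ones (purple). The purple points lie between -0.47 and 0.86.

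Relatives of the named members, found by their symbols after the members were known, were then read in the main comparison. Of 33 such relatives on the array 20 were tested, and limma called 0 lower, where 1.64% of all were called lower, and 1 higher, where 0.284% were called higher. With the replicate block 1 was called lower, CSLC04, and 1 higher, THI2.2, where 4.79% of all were called lower and 2.8% higher. The one called without it was THI2.2, the other thionin of its class, which rose to 834 and 965 in atyak1-1 and 1020.3 and 1197 in atyak1-2, against 380.1 and 576 in the wild type (log2 difference 1.09 ± 0.19 SE, limma adjusted p = 0.047). THI2.1 lay below the wild type on every mutant array by the rule, so its side is no result beside that of THI2.2. The call of THI2.2 is close to the threshold and ended after quantile normalization, after median centring, without the variance trend, under the stricter filter, and with any array but atyak1-1 replicate 1 left out.

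In the family of TBL26, 21 relatives had a probe set and 13 were tested. Their log2 differences ran from -0.52 to 0.31 with a median of 0.11, and limma called 0. In the CSLC family the relatives CSLC04, CSLC5 and CSLC6 were tested and not called, with signals between 391.5 and 859 over all arrays. CSLC04 had a log2 difference of -0.52 ± 0.23, with an adjusted p of 0.32 in limma and of 0.042 with the replicate block. SPR1 and SP1L3, the bright members of the SPIRAL1 family, had signals of 2250.2 to 2779 and 2245 to 2583 on the 6 arrays, with mutant and wild-type arrays overlapping. SP1L5, much dimmer, had -0.57 ± 0.32 (limma adjusted p = 0.41). JAL22, JAL33 and JAL34, at signals of 10.4 to 68.8, and IRX15, at 2.03 to 44.5, were too dim to be tested. No test was made of whether a member differs from its relatives.

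**Figure D4:**
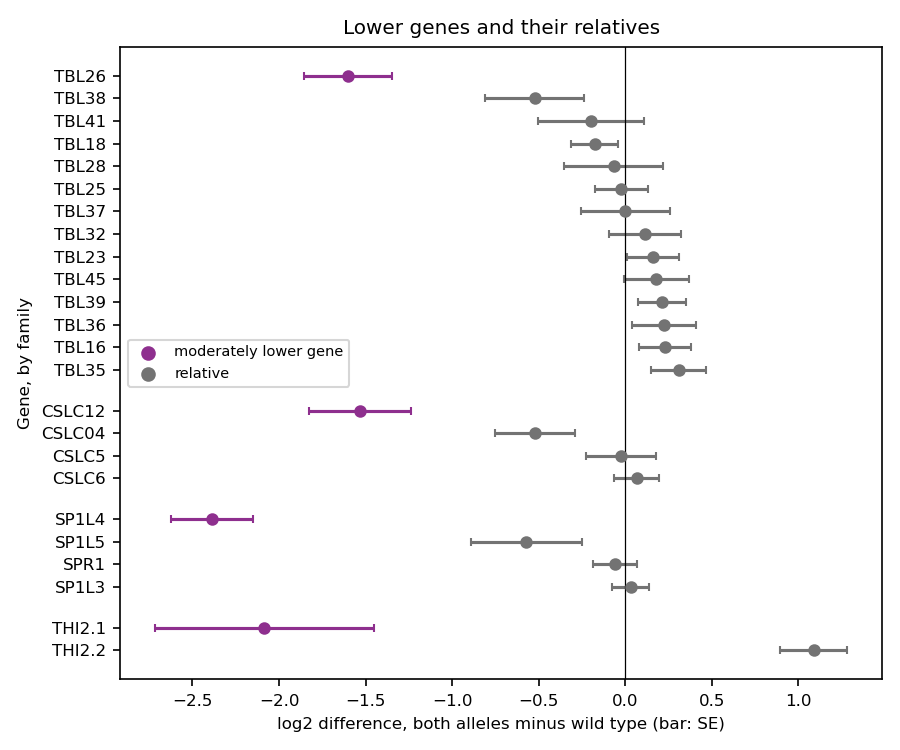
Log2 difference of both alleles minus the wild type, with its SE as a bar, for members of the TBL, CSLC, SPIRAL1 and THI2 families that were tested, with the 61's genes in purple and their relatives in grey. The purple points were chosen for being low; of the grey ones THI2.2 alone passed the test without the replicate block, at 1.09.

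The named members were spread over the genome. Chromosomes 1 to 5 held 8, 3, 4, 3 and 10 of the 28, where they held 25.7%, 16.4%, 20.4%, 14.6% and 22.4% of all named probe sets. No pair of named members lay within 5 protein-coding genes of each other in the RefSeq annotation of assembly TAIR10.1. Of the 56 genes directly next to a named member, 29 had a probe set and 22 were tested. Limma called 0 of the 22 in either direction, where 1.93% of all were called, and their median log2 difference was 0.02. With the replicate block 1 was called lower, AT5G02580, and 1 higher, AT1G02460, both named after their values were seen (log2 difference of AT1G02460 1.03, limma adjusted p = 0.021 with the block and 0.071 without). The lowest was AT5G02580, next to the histone gene AT5G02570 and singled out after its value was seen, with 89.8 and 19.5 in atyak1-1 and 73.0 and 37.7 in atyak1-2, against 285 and 207 in the wild type (-2.38, limma adjusted p = 0.13, or 0.0076 with the block). Next to 4CL8, AT5G38130 was too dim to be tested, at 38.1 to 50.8 in the mutants against 151 and 196 in the wild type.

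The profile of the 61 over the 6 arrays was set against every other probe set tested, by Pearson's r with the members' mean log2 signal. The 5 most alike were 249732_at, 257621_at, 251361_at, 264993_at and AT4G19430, with r from 0.996 to 0.9993 over 6 arrays. This likeness says little about size, because r takes no account of it. 249732_at had 1173 and 1006 in atyak1-1 and 1261 and 1196 in atyak1-2, against 5561 and 6113 in the wild type. For 257621_at the mutant signals ran only from 337 to 347, against 419 and 422 in the wild type.

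Markers of pollen and other bud tissues were read beside the 61. None of the 88 genes on 8 lists of pollen and sperm genes was a member, which the choice partly fixed: ACT12, a pollen actin, met the limits on signal and was left out by symbol, and the rule bars further symbols of pollen genes. The lists were thinly covered: 18 genes had a named probe set and 10 could be tested. The lists were chosen with earlier results of these data known. Of the 10, PLIM2a, AT4G39110 and EXPB5 passed the signal filter only through the wild type. Their mutant signals were at most 58.9, against at least 337 in the wild type. Limma called 7 of the 10 lower and 0 higher, where 1.64% of all probe sets tested were called lower and 0.284% higher. As entry to the test rested partly on the wild-type signal, nothing is drawn from that count. Leaving out an atyak1-2 array gave 2 (replicate 1) or 1 (replicate 2), and leaving out either wild-type array gave 0, with 8 at an unadjusted limma p under 0.05. With the replicate block 8 were called lower, where 4.79% of all were. The added one was AGL66, a MADS-box factor of pollen, at -1.87 (limma adjusted p = 0.023, against 0.094 without). AGL104, also a MADS-box factor on this list, was among the 7 called without the block, at -1.56 (limma adjusted p = 0.0497). AGL30 at -0.63 and AGL65 at -0.06, MADS-box factors on the same list, were not called. Their limma adjusted p was 0.31 and 0.92, or 0.22 and 0.90 with the block. The 18 had a median log2 difference of -2.28, and their summed signal was 820.3 to 1415 on the mutant arrays, against 7040 to 8141 on the wild-type arrays. AT59, a pectate lyase of pollen, had signals from 1.48 to 21.9 on the mutant arrays, against 866 and 630.1 in the wild type. PLIM2b, an actin-bundling LIM protein of pollen, passed the test at -1.76 (limma adjusted p = 0.030), in the range of the 61. PLIM2a, on the same list, lay far lower, at -5.36 (limma adjusted p = 0.0014). EXPB5, a wall-loosening expansin, also passed, at -3.32 (limma adjusted p = 0.030). So did AT4G39110, of the receptor kinase list, at -3.76 (limma adjusted p = 0.011). AtVEX1, of the sugar and water transport list, passed at -4.44 (limma adjusted p = 0.049).

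Over all probe sets tested 1.64% were called lower, and 4.79% with the replicate block. The lists below were also chosen with earlier results of these data known. Of the 2 tested genes of the nectary list 1 was called lower, SWEET9, the sugar exporter of nectaries, at -5.92 (limma adjusted p = 0.0019). SWEET9 had signals of 15.4 to 35.5 in the mutants, against 1867 and 1289 in the wild type. It thus passed the signal filter only through the wild type, and nothing is drawn from its call. The other, JMT, which makes methyl jasmonate, was at -0.87 (limma adjusted p = 0.20) and was called with the replicate block (0.0065). In the list of petal and late stamen genes 1 of 2 tested genes was called lower, BPEp, a growth regulator of petals, at -1.35 (limma adjusted p = 0.046). The other, AT5G44630, a terpene synthase, was at -0.53 (limma adjusted p = 0.20) and was called with the replicate block (0.018). Of the 4 tested genes of tapetum and pollen wall, the 3 of carpel and ovule and the 1 of green tissue, limma called 0 with or without the replicate block. The uncalled tapetum genes were SWEET8, AMS, SHT and AT5G07230, with log2 differences of 0.39, 0.27, 0.22 and 0.14, whose signs changed with some arrays left out. The summed signals of tapetum and of green tissue overlapped between genotypes. They were 6253 to 10191 in the mutants against 4583 to 9390 in the wild type for tapetum. For green tissue they were 11773 to 13650 in the mutants, against 11094 to 14785 in the wild type. For carpel and ovule they were 1173 to 1417 in atyak1-1 and 1327 to 1474 in atyak1-2, against 847 to 1197 in the wild type. There only atyak1-1 overlapped the wild type. The log2 differences of the tested genes of this list were 0.64 for ALC, 0.23 for SPT and -0.32 for INO. ALC had a limma adjusted p of 0.16, or 0.058 with the replicate block. The part that these cell types have in the lower signals of the 61 was not tested.

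At each limit of the rule, probe sets lay close on both sides. The member nearest the limit of 0.5 was 259660_at, with its highest mutant array at 0.4999 of the lower wild-type array. The nearest with a name was CSLC12, at 0.489, and AT1G01250, at 0.501, was just outside. Nearest the limit of 0.25 for replicate 2 was 253040_at, at 0.257, followed by AT1G21010 at 0.265 and THI2.1 at 0.267, and AT1G54020, at 0.237, was just outside. AT1G17540, with a lower wild-type array of 206, and cdc2cAt, with 199, lay on either side of the limit of 200.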

How the data were processed

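The deposited values are linear intensity signals of 22810 probe sets on 6 arrays. The tools GCOS and MAS5 come from the submitters' processing notes, which give no versions. Further steps are not given in the sources used here. The trimmed mean (2% at each end) was 500.04 on every array, so they had been scaled to 1 level, which hides any difference in total RNA. Samples were grouped by their titles. The members and lists were chosen with earlier results of these data known. Signals were taken to log2 with no pseudocount, and 64 control probe sets and the third with the lowest mean log2 signal were left out, which kept 15164 (geometric mean at least 73.6), all 61 members included. In limma 3.58.1 (R 4.3.3) all 6 arrays entered 1 fit with a mean for each genotype and a variance trend (3 residual and 3.84 prior degrees of freedom), and the contrasts' p-values were corrected over all tested probe sets (Benjamini-Hochberg). The fit was tested on simulated data with independent noise on each array. Such data lack the shared deviation of same-numbered samples given below, so the simulation cannot show how the fit behaves under it. Dim list genes and relatives were read from a fit without the filter.

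Names come from the platform's probe table, updated through RefSeq gene records (28 of 28 members matched). The roles given for genes with only a locus code come from general knowledge of Arabidopsis annotation. Genes named were the members with 1 gene, described by role, and the 5 probe sets most like the members' profile. Of list genes that are not members, up to 4 a list by smallest p were open to naming, and not all of these are named. Of the members, the 12 brightest, the 4 highest and 4 lowest in the allele difference and those at each limit are given in detail. Others are said to be chosen after their values were seen. Same-numbered samples deviated together (r = 0.25 for atyak1-1 with the wild type, 0.35 for atyak1-2 with the wild type and 0.61 for the alleles), so the fit with the replicate block is given where it changes a call. No shared batch is stated, and with 2 replicates this evidence is weak. The number of arrays limits the precision. Alternatives were no filter and a stricter one, log2(signal + 32), quantile normalization, median centring, no variance trend, array weights, the replicate block, a fit of the mutants alone, other limits of the rule, and each array left out. Plots were drawn with matplotlib 3.10.9.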

Additional observations from a re-analysis of the deposited data

How the results depend on the processing

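The direction of the members was fixed by the rule, so only sizes are given. Their median was -1.71 with all arrays, -1.54 with log2(signal + 32), which shrinks differences of dim signals, and between -1.84 and -1.52 with each array left out. The number of members was 61, 39 with a wild-type limit of 400, and from 63 to 89 under the other 4 versions of the rule. On quantile-normalized signals 59 of the 61 were picked again. The count of members called lower was 51, 29 under the stricter filter, which left fewer members to test, and between 0 and 60 with each array left out. The count of pollen list genes called lower was 7, 1 under the stricter filter and between 0 and 8 with each array left out. No member passed in atyak1-2 minus atyak1-1 under any alternative run, with 1 to 12 members at an unadjusted p under 0.05. With arrays left out, the allele difference ran from -0.33 to 1.25 for JAL23 and from -0.44 to 2.16 for THI2.1, and it kept its sign for the other 8 probe sets named for it. Among list genes tested but not called, some differences of both alleles minus the wild type changed sign with arrays left out. These were SWEET8 (-0.14 to 0.92), AMS (-0.044 to 0.59), SHT (-0.36 to 0.81), AT5G07230 (-0.36 to 0.65), INO (-0.77 to 0.13) and RCA (-0.22 to 0.19). The difference of AGL65 also changed sign when a wild-type array was left out. Of 433 alternative values for 32 members named in the text, 17 moved by more than the spread between replicates. The replicate block brought all 61 members past the threshold in the main comparison, and 0 in the allele difference, and it called AGL66, JMT, AT5G44630, CSLC04, AT5G02580 and AT1G02460, which had not passed without it. Where an array was left out, the remaining array of its group was assumed to vary like the other groups. Dim signals limit the folds of members under about 73.6.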
